A study of Mus musculus with 16 samples.

Results

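Pituitary RNA was profiled in 16 female mice, and 8 genes are described here: *Plat*, *Dbi*, *Pglyrp1*, *Sertad1*, *Grb14*, *Rasal1*, *Rasal3* and *Cd37*. They were chosen by their values in these same mice, among 17362 genes listed, because they were higher in mutants than in controls on the standard diet (SD) and lower on a high-fat diet (HFD) than on SD within the mutants. Genes whose values averaged below 1 were set aside, which left 14345 for testing, the 8 among them. *Rasal3* and *Cd37* passed this filter through the mutants on SD alone, since their means in each of the other 3 groups were below 1, so the group in which they were chosen to be high also decided that they were tested. Their calls, counts and correlations below carry this limit. The study asked which signals raised in mutant females, which have a high bone mass, are lost with HFD.

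The 4 groups held 4 mice each, with 1 library per mouse. Controls were Esr1 fl/fl females, in which *Esr1*, the gene for oestrogen receptor alpha, carries sites for Cre but no Cre was used. Mutants were Esr1Nkx2-1Cre females, in which Cre, driven by *Nkx2-1*, removes *Esr1* from cells that express the driver or descend from such cells. They include much of the ventral hypothalamus and the posterior lobe of the pituitary, so a difference in the gland need not arise in the cells that lost the gene. Because mutants alone carry Cre, the effects of Cre and of the deletion cannot be told apart. All mice were 27 weeks old, of a mixed CD-1 and 129P2 background, and received either SD, called chow in the labels, or HFD for 17 weeks.

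The values, as deposited, are expression signal after normalization and summed to between 908897 and 1335780 per library. *Esr1* itself stood at 10.02, 22.2, 20.5 and 21.8 in mutants on SD, against 29.0 to 46.6 in controls on SD. On HFD the mutants (21.5 to 33.4) and the controls (23.6 to 43.4) overlapped in *Esr1*. The gland was identified by its hormone genes, all 7 of which were measured, with prolactin (*Prl*) taking 28.8% to 40.6% of the signal.

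Several libraries stood apart from their groups before any of the 8 genes is considered. P357, a mutant on SD, had a mitochondrial sum of 119409, against 32247 to 49368 in the other mice, and an intermediate lobe sum of 1666, the lowest of the 16. P392, a control on HFD, had an intermediate lobe sum of 3484, and P391 of the same group had 42298, the highest of the 16, while the other 2 had 11369 and 15598. P392 also had an endothelial sum of 297.8, above the 148.1 to 162.6 of the other controls on HFD. P384, a mutant on SD, had a leukocyte gene sum of 147.6, against 22.3 to 74.0 in the other mice. For several results, values without these mice are also given. In a whole gland, fewer cells of a type and less RNA per cell cannot be told apart.

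The 8 genes have different roles. *Plat* encodes tissue plasminogen activator, a secreted protease that turns plasminogen into plasmin and that neuroendocrine cells store in secretory granules. *Dbi* encodes diazepam-binding inhibitor, also called acyl-CoA-binding protein, which carries fatty acyl-CoA esters inside cells and can be released as a peptide that acts on GABA type A receptors. *Pglyrp1* encodes a secreted peptidoglycan recognition protein known from neutrophil granules. *Sertad1* encodes a nuclear regulator of cyclin D and E2F activity. *Grb14* encodes an adaptor that inhibits the insulin receptor. *Rasal1* and *Rasal3* encode GTPase-activating proteins that switch Ras off, the latter known mainly from blood cells. *Cd37* encodes a tetraspanin of leukocytes, most abundant in B cells.

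The choice of genes has a cost for what can be read from it. The mutants on SD enter both differences used for the choice, so a high value there by chance raises the genotype difference and lowers the diet difference of the same gene, and both then shrink in new mice by regression to the mean. The part of this in the values below was not tested. Of 196 genes called higher in mutants on SD (limma, adjusted p under 0.05; 1.37% of genes tested), 145 had a negative diet difference in mutants and 22 of these an unadjusted p under 0.05 there. With limma, 0 genes (0% of those tested) passed an adjusted p under 0.05 for HFD against SD in mutants, and 717 had an unadjusted p under 0.05, of which 351 were lower on HFD (2.45% of those tested). All 8 genes stood among the first 12 of the 22 when ordered by that p, beside *Gm45246*, *Penk*, *Vip* and *Gm7694*. The last of them was *Cd37*, with a diet difference in mutants of -0.90 on the log2 scale, and the next gene in the order was *Mrpl36*, at -0.32. The order does not follow the size of the difference, since *Gm7694*, directly before *Cd37*, stood at -0.38. Left-out mice move the count of genes called on SD, 264 in both directions, to between 33 (without P382) and 826 (without P356). The calls of the 8 on SD are often lost when 1 mouse is left out, and they hold in 3 (*Rasal1*) to 11 (*Plat*, *Grb14* and *Rasal3*) of 16 such fits. Nothing is read from the counts in these 2 comparisons, and the members' values in them are a description.

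**Figure D1:**
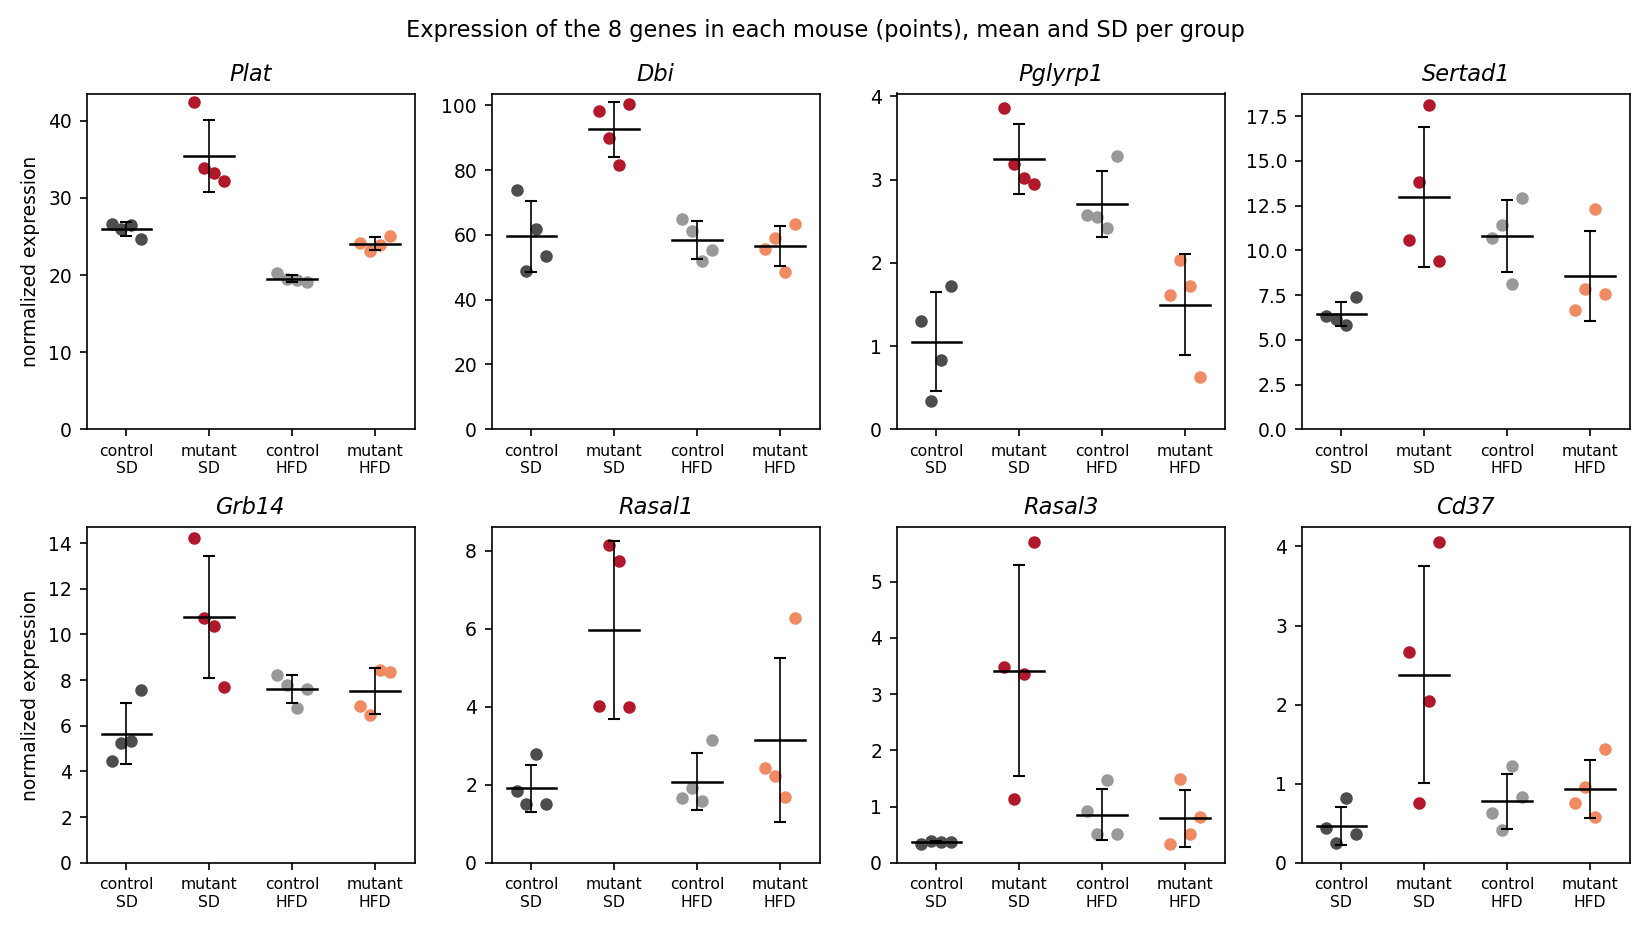
Normalized expression of the 8 genes (vertical axes, from 0) in each mouse (points) of the 4 groups, with the group mean (line) and SD (bar), n = 4 mice per group. The mutants on SD have the highest group mean in all 8 panels. The choice requires this against controls on SD and mutants on HFD, not against controls on HFD. The controls on HFD lie below the controls on SD for *Plat* and above them for *Pglyrp1*, *Sertad1* and *Rasal3*.

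*Plat* RNA had lower values on HFD than on SD in both genotypes, though neither difference passed the threshold. In mutants this direction was a condition of the choice. *Plat* (ENSMUSG00000031538, chr8:22757727-22782844, plus strand, GRCm38) stood at 42.4, 33.9, 33.2 and 32.2 in mutants P357, P381, P382 and P384 on SD and at 24.2, 23.1, 23.8 and 25.1 in P339, P341, P387 and P388 on HFD. In controls it stood at 26.7, 25.9, 26.5 and 24.7 in P356, P358, P359 and P383 on SD and at 20.2, 19.4, 19.3 and 19.1 in P385, P390, P391 and P392 on HFD. No 2 groups that differ in genotype alone or in diet alone overlapped, and the mutants on HFD overlapped the controls on SD. The difference between diets in controls was -0.40 on the log2 scale (95% CI -0.59 to -0.21, n = 4 against 4, limma adjusted p = 0.56), beside -0.54 in mutants, and the interaction was -0.14 (95% CI -0.41 to 0.13), or -0.05 without P357 and -0.25 with the range of animal numbers as covariate. Without P357, the mouse with the highest value, the adjusted p in controls was 0.054, and over all alternatives it ran from 0.054 to 1.00.

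On HFD, *Plat* was still higher in mutants than in controls, by 0.30 on the log2 scale (95% CI 0.10 to 0.49, higher in 4 of 4 mutants, limma adjusted p = 0.27). This difference passed the threshold when P357 and P392 were left out (0.28, adjusted p = 0.023), when P384 was left out as well (0.28, adjusted p = 0.032) and with limma's weights for each library (0.29, adjusted p = 0.016). In these fits, in that order, 1064, 969 and 1068 of the 14345 genes tested were called, against 0 in the main fit. Passing there is therefore not particular to *Plat*. The adjusted p of *Plat* ran from 0.016 to 0.70 over all alternatives, while the difference itself ran from 0.24 to 0.34.

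*Plat* is known from endothelial cells as well as endocrine cells. All 10 endothelial markers were measured and none was at 0 in any mouse, and *Plvap*, of fenestrated vessels, was the most abundant. Their summed level was 314.4, 258.9, 256.6 and 230.6 in mutants on SD (P357, P381, P382 and P384) and 166.0, 188.3, 177.0 and 153.1 in controls on SD (P356, P358, P359 and P383). On HFD it was 260.8, 240.9, 252.4 and 233.2 in mutants (P339, P341, P387 and P388) and 148.1, 162.6, 161.6 and 297.8 in controls (P385, P390, P391 and P392). The endothelial sum was higher in mutants on both diets apart from P392, and the list's median diet difference was 0.08 in mutants and 0.15 in controls, with 6 and 9 of the 10 genes above 0. The part of vessels in the genotype difference of *Plat* was not tested.

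Another gene of plasminogen activation was called on SD but was close to level between diets in mutants. Of 15 genes on that list, 12 were measured and 11 tested, and *Plat* and *Anxa2*, a receptor for plasminogen and its activator, were called higher in mutants on SD while none was called lower. Over all genes tested 1.37% were called higher on SD, a share that also stands beside the calls in the lists below. *Anxa2* rose by 0.75 on the log2 scale (limma adjusted p = 0.026), and its difference between diets in mutants was -0.11, where its mean was 120.2 ± 10.8 (SD, n = 4) in mutants on SD and 111.2 ± 3.68 in mutants on HFD. The list's median difference on SD was 0.31 (-0.01 over all genes tested), and in controls between diets it was 0.09 (0.00 over all genes). *S100a10*, the partner of *Anxa2* and the most abundant gene of the list, had a difference of 0.68 on SD (adjusted p = 0.075). Between diets in mutants it differed by -0.43 (limma adjusted p = 0.81). The list's median there was -0.07, with 4 genes above 0 and 7 below. The urokinase gene *Plau*, the closest relative of *Plat*, had a mean of 0.967 and was below the filter.

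*Dbi* stood apart in the mutants on SD. *Dbi* (ENSMUSG00000026385, chr1:120113280-120121078, minus strand) stood at 81.7 (P382) to 100.3 (P384) in mutants on SD, and the other 12 mice lay between 48.7 and 73.9. In controls the values were 73.9, 49.0, 61.9 and 53.4 on SD and 64.9, 61.3, 52.0 and 55.4 on HFD, and in mutants on HFD they were 55.5, 59.0, 48.7 and 63.3. The 3 groups other than mutants on SD overlapped. The diet difference in controls was -0.02 (95% CI -0.28 to 0.25) and the genotype difference on HFD was -0.04 (95% CI -0.31 to 0.22). A processed pseudogene, *Gm12222*, shares 261 bases with *Dbi* at 93.9% identity.

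Its nearest relative, *Acbd7*, is expressed at a low level and varied widely. *Acbd7* had means of 3.03 ± 0.768 in mutants on SD, 1.345 ± 1.12 in controls on SD, 2.62 ± 1.37 in controls on HFD and 1.41 ± 0.689 in mutants on HFD (SD, n = 4 each), and it passed the threshold in none of the 5 comparisons. Of the 9 genes on the acyl-CoA binding list, all were measured, 8 were tested and *Dbi* alone was called, on SD. The enoyl-CoA isomerase gene *Eci2*, the most abundant, had differences of -0.02 on SD and -0.18 between diets in mutants. The gland also holds folliculostellate and stem cells. Their 5 markers were all measured and above 0 in every mouse, with *Aldh1a2* the most abundant, and summed to 88.7, 74.8, 61.6 and 57.3 in mutants on SD (P357, P381, P382 and P384) against 43.1 to 52.4 in controls on SD, 48.3 to 69.6 in mutants on HFD and 47.4 to 60.3 in controls on HFD. The part of these cells in the values of *Dbi* was not tested.

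*Pglyrp1* differed in opposite directions between diets in the 2 genotypes. *Pglyrp1* (ENSMUSG00000030413, chr7:18871331-18890459, plus strand) stood at 3.86, 3.18, 3.01 and 2.94 in mutants on SD and at 1.62, 2.03, 1.72 and 0.628 in mutants on HFD. In controls it stood at 1.30, 0.343, 0.835 and 1.73 on SD and at 2.57, 2.55, 2.42 and 3.29 on HFD. Controls on HFD therefore lay above controls on SD and above mutants on HFD, with no overlap in either case. The diet difference in controls was 1.13 (95% CI 0.51 to 1.75, limma adjusted p = 0.75) and the genotype difference on HFD was -0.74 (95% CI -1.36 to -0.12, adjusted p = 0.40), so neither passed. Without P388 the latter was -0.48. The interaction, which contains the comparisons used for the choice, was -2.10 (95% CI -2.97 to -1.22).

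The level of *Pglyrp1* is low. From the size of the smallest steps in the values, its coding transcript was estimated to be worth 3 reads in the lowest mouse, P358, and 26 in the highest, so counting error is large. Noncoding transcripts of *Pglyrp1*, but not its coding transcript, share 100 to 105 bases at 90% identity or more with 18 other genes, 4 of them measured. It has no tested relative, since *Pglyrp2* had a mean of 0.187, below the filter. Of the 10 genes on the peptidoglycan recognition list 6 were measured and 4 tested, and *Pglyrp1* alone was called. The most abundant, the lysozyme gene *Lyz2*, had a difference of 1.35 on SD (adjusted p = 0.18) and of 0.36 between diets in controls. Of the 10 neutrophil markers 5 were measured, with *S100a9* the most abundant, and *S100a8*, *S100a9* and *Ltf* were listed at 0 in 3 mice each. The neutrophil sum was 8.48, 5.79, 4.41 and 4.08 in mutants on SD, 3.28, 1.57, 1.55 and 1.56 in controls on SD, 63.7, 9.71, 9.51 and 2.90 in mutants on HFD, and 1.13, 0.945, 9.70 and 13.1 in controls on HFD. The part of neutrophils in the pattern was not tested.

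Promoter sequence from RefSeq (GRCm38.p6) was matched for 6 of the 8 genes. *Plat* and *Rasal1* had no entry. The 250 bases before the most upstream start in the RefSeq table were searched on both strands for GAGGAA, the core bound by the leukocyte factor PU.1, for CACGTG, an E-box, for GGTCA, a half-site of the oestrogen response element, and for GGGCGG, the GC box of Sp1. The full oestrogen element, GGTCA followed by 3 bases of any kind and TGACC, and the cyclic AMP response element were also searched. In the order given, these 6 motifs, chosen after the values were seen, occur in 23.1%, 6.04%, 34.9%, 33%, 0.0629% and 1.6% of 27025 promoters, 1 per gene. GAGGAA occurred in both *Pglyrp1* and *Cd37* at 2 places each and in none of the other 4, and the GC box in 5 of the 6, all but *Dbi*. CACGTG occurred in *Rasal3* and *Cd37*, and GGTCA in *Rasal3* alone. No promoter of the 6 held the full oestrogen element or the cyclic AMP element. For *Pglyrp1*, *Grb14* and *Cd37* this window lies inside the gene as GENCODE draws it. Sequence is shown for *Pglyrp1*, for its pattern across the groups, where it ends directly before the coding transcript, and for *Rasal3*, where an E-box and a half-site overlap before the gene. Capitals mark GAGGAA, read on either strand, in the first and the joined GGTCA and CACGTG in the second. A match is a description of letters and not a bound site.
Pglyrp1, chr7:18884440-18884679, plus strand: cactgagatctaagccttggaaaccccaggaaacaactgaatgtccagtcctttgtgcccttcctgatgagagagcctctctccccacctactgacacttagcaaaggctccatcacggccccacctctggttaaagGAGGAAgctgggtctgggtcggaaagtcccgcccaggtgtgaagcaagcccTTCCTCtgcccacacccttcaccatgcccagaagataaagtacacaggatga
Rasal3, chr17:32403584-32403832, minus strand: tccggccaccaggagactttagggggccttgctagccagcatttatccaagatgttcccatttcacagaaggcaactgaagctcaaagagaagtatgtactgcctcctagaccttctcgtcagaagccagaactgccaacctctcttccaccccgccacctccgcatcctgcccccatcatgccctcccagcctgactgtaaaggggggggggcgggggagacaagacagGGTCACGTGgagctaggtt

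*Sertad1* and *Grb14* also had higher means in controls on HFD than in controls on SD, though neither difference passed the threshold. *Sertad1* (ENSMUSG00000008384, chr7:27486910-27490316, plus strand) stood at 10.5, 13.8, 18.1 and 9.42 in mutants on SD and at 6.68, 7.82, 12.3 and 7.54 in mutants on HFD. In controls it stood at 6.34, 6.14, 5.85 and 7.38 on SD and at 10.7, 11.4, 8.09 and 12.9 on HFD, with no overlap. The diet difference in controls was 0.69 (95% CI 0.24 to 1.14, limma adjusted p = 1.00), and the genotype difference on HFD was -0.33 (95% CI -0.78 to 0.12), with 3 of the 4 mutants below all the controls and P387 among them. Without P387, which was also within the range of the mutants on SD, the latter was -0.51. With the range of animal numbers as covariate the diet difference in controls was 0.44 and the genotype difference on HFD -0.17.

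*Sertad1* is induced by growth signals in cultured cells, so immediate early genes are given beside it. All 14 were measured and above 0 in every mouse, with *Nr4a2* the most abundant. Their sum was 189.2, 405.6, 275.2 and 1190 in mutants on SD (P357, P381, P382 and P384), 413.6, 194.4, 468.9 and 669.0 in controls on SD, 495.9, 343.8, 633.3 and 304.4 in mutants on HFD, and 221.6, 193.7, 499.2 and 481.1 in controls on HFD. None of the 13 genes tested passed the threshold in a comparison, and the list's part in the values of *Sertad1* was not tested. Its relative *Sertad3* had means of 6.52 ± 0.455 in controls on SD and 9.14 ± 1.15 in controls on HFD (SD, n = 4), a difference of 0.45 (adjusted p = 1.00), and 0.08 between genotypes on SD. Of the 13 genes on the list of SERTAD and cyclin D genes, 12 were measured and tested, and *Sertad1* alone was called. The kinase gene *Cdk4*, the most abundant, had a difference of 0.03 on SD.

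*Grb14* (ENSMUSG00000026888, chr2:64912476-65024987, minus strand) ranged from 7.69 to 14.2 in mutants on SD, 6.48 to 8.45 in mutants on HFD, 4.45 to 7.55 in controls on SD and 6.77 to 8.22 in controls on HFD. The 2 groups on HFD overlapped, with a genotype difference of -0.02 (95% CI -0.40 to 0.36). In controls the diet difference was 0.42 (95% CI 0.04 to 0.80, limma adjusted p = 1.00), and 1 of the 4 controls on SD, P383, lay among those on HFD. With the range of animal numbers as covariate, the diet difference of *Grb14* in controls was 0.33 (SE 0.22). P357 held the highest *Grb14* value, and without it the diet difference in mutants was -0.32 where it had been -0.46.

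The related adaptor *Grb10* was higher in mutants on both diets. *Grb10* rose by 1.14 on the log2 scale in mutants on SD (limma adjusted p = 0.029), with means of 35.1 ± 6.31 against 15.6 ± 2.48 (SD, n = 4). On HFD its mean was 36.6 ± 4.07 in mutants and 18.4 ± 9.06 in controls (difference 1.07, adjusted p = 0.20). All 10 genes of the GRB7 family and insulin receptor list were tested, and *Grb14* and *Grb10* were called higher on SD and none lower. The insulin receptor gene *Insr* had differences of 0.02 on SD and 0.07 on HFD, and the most abundant gene, *Sqstm1*, of 0.13 and -0.01. The median over the list was 0.04 on SD.

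*Rasal1* (ENSMUSG00000029602, chr5:120648812-120679597, plus strand) ranged from 3.99 to 8.14 in mutants on SD, 1.502 to 2.78 in controls on SD and 1.57 to 3.15 in controls on HFD. Mutants on HFD stood at 2.43, 2.22, 1.68 and 6.27, so that P388 lay among the mutants on SD and the other 3 among the controls. The genotype difference on HFD was 0.39 (95% CI -0.32 to 1.11, limma adjusted p = 0.75), and it was 0.05 without P388. The diet difference in controls was 0.09 (95% CI -0.63 to 0.80).

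*Rasal3* and *Cd37* had low levels, and both were highest in P384. *Rasal3* (ENSMUSG00000052142, chr17:32390659-32403583, minus strand) stood at 3.48, 1.13, 3.37 and 5.70 in mutants P357, P381, P382 and P384 on SD, and all 4 controls on SD lay between 0.334 and 0.392. It stood at 0.927, 0.506, 1.48 and 0.512 in controls on HFD and at 0.335, 1.496, 0.515 and 0.812 in mutants on HFD. Controls on HFD lay above controls on SD with no overlap, by 0.59 (95% CI -0.20 to 1.38, limma adjusted p = 1.00), or 0.39 without P391, and the genotype difference on HFD was -0.09 (95% CI -0.88 to 0.70). *Cd37* (ENSMUSG00000030798, chr7:45233632-45239115, minus strand) stood at 2.66, 0.758, 2.04 and 4.05 in the same mutants on SD, at 0.254 to 0.815 in controls on SD, at 0.413 to 1.23 in controls on HFD and at 0.581 to 1.43 in mutants on HFD. P384 was highest and P381 lowest of the mutants on SD for both genes, and P381 lay within the range of controls on SD for *Cd37*.

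An antisense gene, *CT485616.1*, covers 6806 bases of *Rasal3* on the other strand, its transcript sharing 528 bases with a coding transcript of *Rasal3*, and *Tead2* overlaps the end of *Cd37* by 13 bases. The use of strand in the counting is not given in the sources used here, so reads of the shared 528 bases may come from either gene. At the longest coding transcript *Rasal3* was estimated at 19 to 300 reads and *Cd37* at 11 to 142. The diet difference of *Cd37* in mutants, -0.90, was -0.63 without P384 and -0.35 without P357, P384 and P392, and the genotype difference on SD, 1.46, was 0.92 without the same 3. For *Rasal3* the corresponding values without the 3 mice were -1.04 and 1.53, from -1.53 and 2.03.

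**Figure D2:**
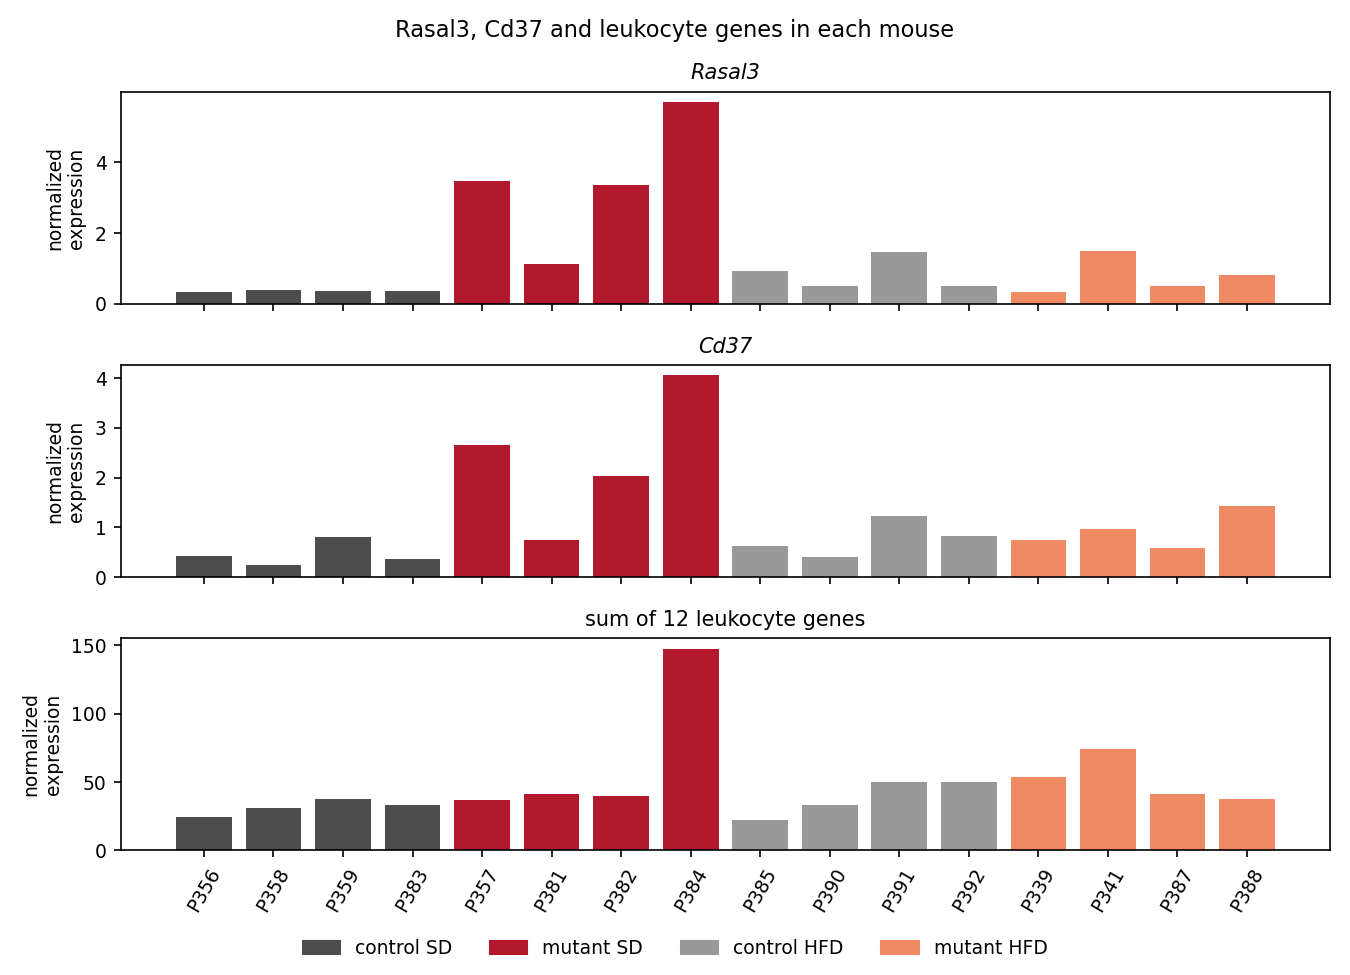
Normalized expression (bars, from 0) of *Rasal3*, *Cd37* and the sum of 12 leukocyte genes in each of the 16 mice, in the order of the 4 groups. P384 is highest in all 3 panels (5.70, 4.05 and 147.6), and the leukocyte sum is 36.7 in P357 and 39.7 in P382.

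Leukocyte genes are given for each mouse beside these 2 genes. All 12 leukocyte markers were measured and above 0 in every mouse, with *Cd52* the most abundant. Their sum was 36.7, 41.6, 39.7 and 147.6 in mutants on SD (P357, P381, P382 and P384) and 24.8, 31.2, 37.9 and 33.3 in controls on SD (P356, P358, P359 and P383). It was 53.6, 74.0, 41.0 and 37.4 in mutants on HFD (P339, P341, P387 and P388) and 22.3, 33.1, 49.8 and 50.2 in controls on HFD (P385, P390, P391 and P392). Of the 11 leukocyte genes tested none was called in any comparison, and the list's median difference was 0.74 between genotypes on SD, 0.36 on HFD and -0.13 between diets in mutants. Between diets in mutants the 3 tested T and NK cell genes had a median of -0.75 and the 3 tested B cell genes of -0.31, all 3 below 0 in each list.

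Markers of single leukocyte types gave the following values. The 7 measured of 8 B cell genes, of which *Ighm* was the most abundant and *Pax5* was at 0 in 3 mice, summed to 86.2 in P384 and to between 4.81 and 24.2 in the other 15 mice. All 8 T and NK cell genes were measured, *Cd3d* was the most abundant, *Nkg7* was at 0 in 3 mice and *Trac* in 1, and the sum was 40.2 in P384 and 6.70 to 17.1 elsewhere. All 10 macrophage genes were above 0 in every mouse, with *C1qa* the most abundant, and summed to 99.9 to 227.1 in mutants on SD, 58.2 to 77.9 in controls on SD, 94.8 to 209.5 in mutants on HFD and 52.0 to 163.5 in controls on HFD. One of them, the mannose receptor gene *Mrc1*, was called higher in mutants on SD (1.06, limma adjusted p = 0.034). With the leukocyte covariate, the genotype difference on SD was 1.70 for *Rasal3* (limma adjusted p = 0.062), from 2.03. For *Cd37* it was 1.13 (limma adjusted p = 0.11), from 1.46, so neither passed. Both genes were chosen on this comparison, and with this covariate the count of all genes called in it fell from 264 to 43. Nothing particular to *Rasal3* and *Cd37* is therefore read from these values, and the part of leukocytes in them was not tested.

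Relatives of these genes gave the following values. All 10 genes of the Ras GTPase-activating list were tested, and *Rasal1* and *Rasal3* were called higher on SD and none lower, with a list median of 0.05. *Rasal2*, their relative, had a difference of -0.28 (adjusted p = 0.35). Of 14 tetraspanins 13 were measured and 12 tested, and *Cd37* and *Cd9* were called higher on SD and none lower, with a list median of 0.30. Over all genes tested 1.37% were called higher on SD, with a median of -0.01. *Rasal1*, *Rasal3* and *Cd37* were chosen for being higher there. *Cd9*, a widely expressed tetraspanin, rose by 0.88 (limma adjusted p = 0.026) and had means of 99.2 ± 15.5 in mutants on SD and 100.7 ± 9.23 in mutants on HFD (SD, n = 4). The leukocyte tetraspanin *Cd53* had a difference of 0.86 on SD (adjusted p = 0.24) and of -0.13 between diets in mutants, and *Cd63* was the most abundant of the family.

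**Figure D3:**
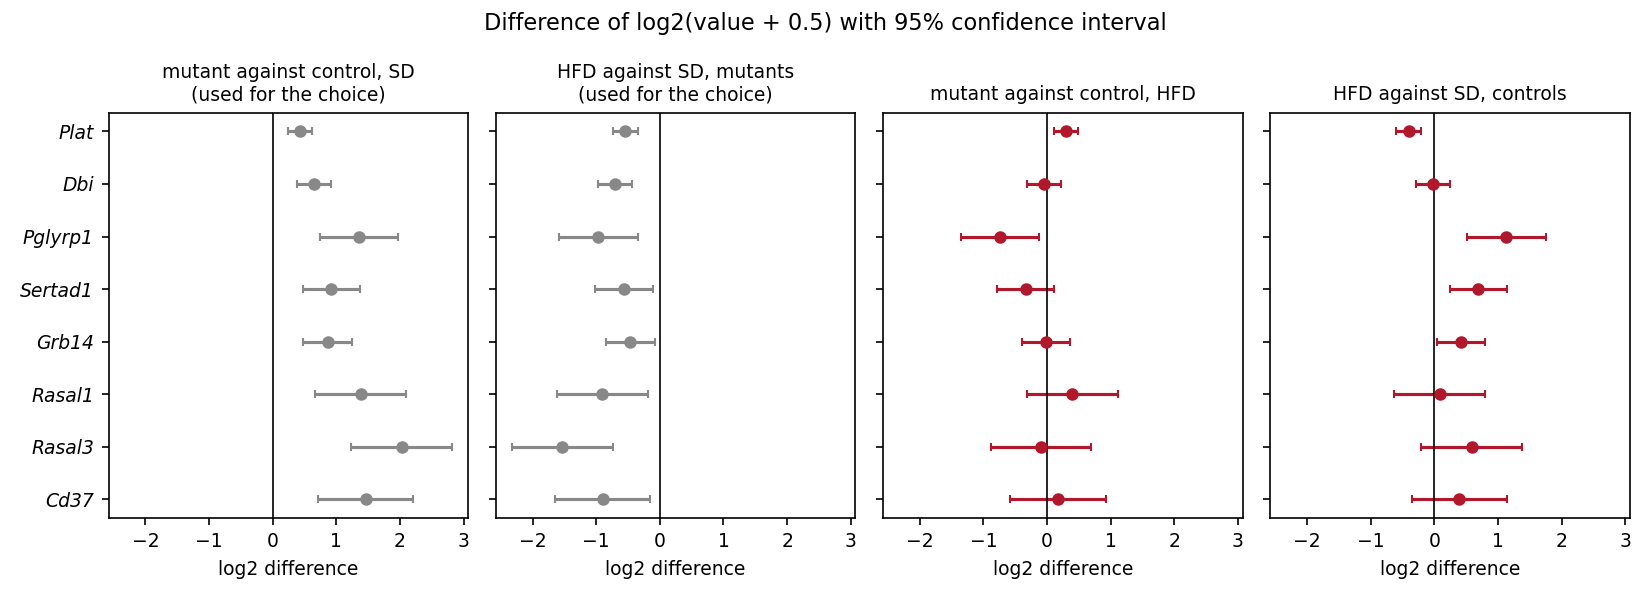
Differences of log2(value + 0.5) for the 8 genes (points) with 95% confidence intervals (bars) in 4 comparisons, n = 4 mice per group. Grey marks the comparisons used to choose the genes and red the others, in which *Plat* lies above 0 between genotypes on HFD (0.30) and below 0 between diets in controls (-0.40), and *Pglyrp1* the reverse (-0.74 and 1.13).

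Across the 8 genes, the question left by the choice is whether HFD brings mutants to the level of controls on the same diet. For mutants against controls on HFD, limma called 0 of 14345 genes (0%), with 1461 at an unadjusted p under 0.05, and none of the 8. Of the 8, 3 were higher and 5 lower, with a median of -0.03 (0.02 over all genes), and 2 had groups without overlap, *Plat* higher and *Pglyrp1* lower, where 5.3% of all genes had none. The mutants on HFD also entered the choice, which favours low values there. The count of genes called rests on P392: without it 653 genes were called, and without P357 and P392 1064, of which *Plat* was the only one of the 8. Set against controls on SD, the mutants on HFD differed by between -0.11 (*Plat*) and 0.57 (*Cd37*), and the 95% CI included 0 for each of the 8 except *Grb14* (0.40, 95% CI 0.02 to 0.78). This difference is the sum of the 2 used for the choice, in which both groups were the low ones. Its values are therefore a description, and nothing is read from the intervals.

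The difference between diets in controls compares these genes where *Esr1* is intact. The controls on HFD all lie in the higher range of animal numbers, and those on SD, apart from P383, in the lower. Diet and number range can therefore not be fully told apart in controls. For HFD against SD in controls, limma called 0 genes (0%), with 592 at an unadjusted p under 0.05, and none of the 8. Of the 8, 6 were higher on HFD and 2 lower, with a median of 0.41 (0.00 over all genes). Groups did not overlap for 4 of the 8, *Pglyrp1*, *Sertad1* and *Rasal3* higher and *Plat* lower, where 2.61% of all genes had no overlap in either direction. For *Rasal3* both of these groups lie below the filter. The controls on SD entered the choice as the low group, which favours higher values on HFD by comparison, and the part of this was not tested. For the interaction of genotype and diet, limma called 0 genes (0%), with 602 at an unadjusted p under 0.05, and the estimates for the 8 genes ran from -0.14 for *Plat* to -2.12 for *Rasal3*.

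Deviations within groups entered the choice through the p of each single gene. They show whether the 8 genes vary together among mice of the same group. After the group mean was removed, 14 of the 28 pairs had a positive Pearson's r over the 16 mice, and the median r was -0.02. No pair passed an adjusted p under 0.05 in a permutation of mice within groups (100000 draws, two-sided), and 1 of the 28 had an unadjusted p under 0.05 by r. That pair was *Rasal3* and *Cd37*, with r = 0.78 (permutation p = 0.011, adjusted p = 0.30) and Spearman's rho = 0.66 (permutation p = 0.021, adjusted p = 0.50). Both genes passed the filter through the mutants on SD alone, so nothing is read from this pair. Without P381 and P384, both mutants on SD and the mice farthest from the median of *Rasal3*, its r with *Cd37* was 0.50. Over 13 mice without P357, P384 and P392 it was 0.71 (permutation p = 0.074). Over these 13 mice, 2 other pairs had an unadjusted p under 0.05 by r, *Sertad1* and *Grb14* (r = 0.52) and *Rasal1* and *Cd37* (r = 0.51). By rank, *Dbi* and *Rasal1*, *Plat* and *Dbi*, *Plat* and *Rasal1*, and *Rasal3* and *Cd37* did so (rho = 0.70, 0.69, 0.64 and 0.75). None passed when adjusted. By rank over the 16 mice, *Sertad1* and *Cd37* also had an unadjusted p under 0.05 (rho = -0.61, permutation p = 0.036, adjusted p = 0.50). Over the 13 mice their rho was -0.16 (permutation p = 0.71). Against the mean of the leukocyte genes, 0 of 8 relations passed an adjusted p under 0.05 in the same test. The relation with the smallest p was negative, that of *Grb14* (r = -0.60, rho = -0.59, permutation p = 0.059 and 0.027, adjusted p = 0.42 and 0.22), and without P357 and P384 its r was -0.25. *Plat* had r = -0.55 (rho = -0.49, permutation p = 0.25 and 0.098, adjusted p = 0.42 and 0.39), which was -0.25 without P357 and P384 and -0.59 over the 13 mice (permutation p = 0.064). The positive ones included r = 0.51 for *Cd37* (rho = 0.37, permutation p = 0.24 and 0.23, adjusted p = 0.42 and 0.47) and r = 0.47 for *Rasal3* (rho = 0.15, permutation p = 0.26 and 0.63, adjusted p = 0.42 and 0.73), which were 0.20 and 0.16 without P381 and P384.

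**Figure D4:**
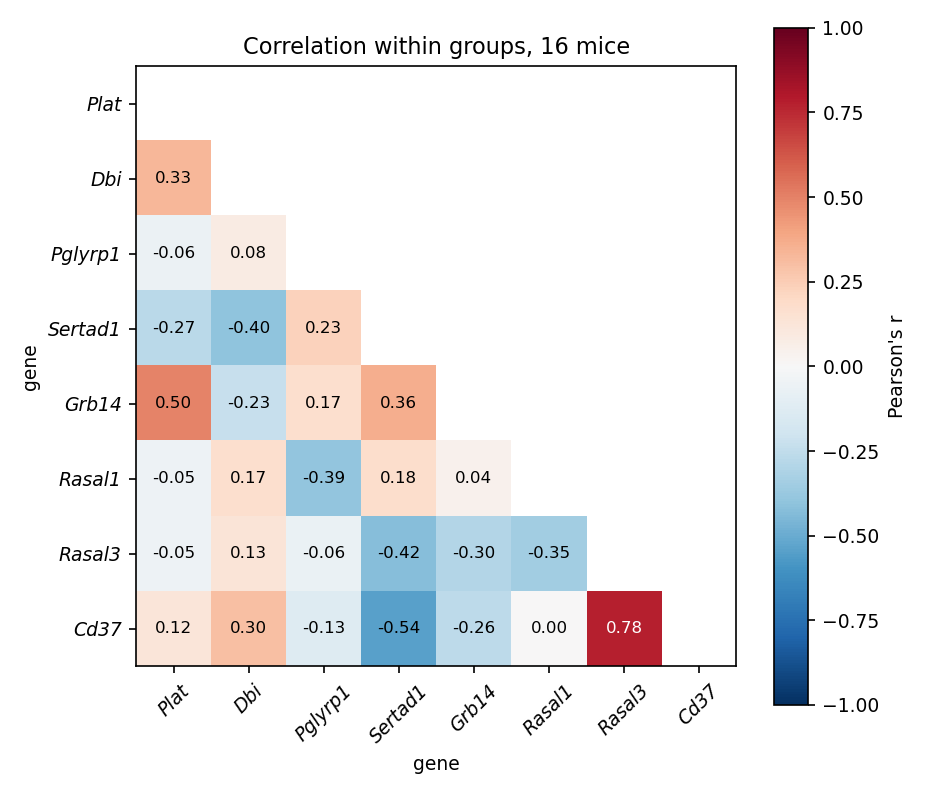
Pearson's r between the 8 genes (both axes) over 16 mice after the mean of each group was removed, with colour and printed value from -1 to 1. *Rasal3* and *Cd37* have the highest r, 0.78, and *Sertad1* and *Cd37* the lowest, -0.54.

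Over all 16 mice, group differences included, the genes most like each member were as follows, as a description that shares the choice. *Plat* was most like *Rflnb* (r = 0.91), *Anxa3* (0.86) and *Gclc* (0.86), and *Dbi* most like *Gclc* (0.89), *Lig3* (0.87) and *Maob* (0.80). *Gclc*, which encodes the catalytic subunit of the enzyme that limits glutathione synthesis, was in both. *Rasal3* and *Cd37* were each other's nearest gene (r = 0.91) and shared *Cyba* (0.81 and 0.85), which encodes a subunit of the phagocyte NADPH oxidase. *Pglyrp1* was most like *Gm45246* (0.84), *C330021F23Rik* (0.82) and *Ipo13* (0.78). *Rasal1* was most like *Tiprl* (0.88), *Higd1a* (0.83) and *Penk* (0.81), *Grb14* most like *Crabp2* (0.83), *Tmem252* (0.82) and *S100a6* (0.81), and *Sertad1* most like *Mrpl19* (0.79), *Olfr1033* (0.76) and *Card19* (0.76). *Tmem252* was also near *Rasal3* (0.84) and *Fam177a* near *Cd37* (0.87). On the genome, *Pglyrp1*, *Sertad1* and *Cd37* lie on chromosome 7, at least 8596451 bases apart, and the other 5 on separate chromosomes.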

How the data were processed

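The authors prepared pituitary libraries with the NEBNext Ultra II kit, sequenced them on a NovaSeq, quantified genes with kallisto on mm10 and tested them with sleuth. Versions of these tools are not in the sources used here. The signal the authors deposited is normalized, and it was not treated as counts.

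The 8 genes and the gene lists were chosen with earlier results of these data known. The rule for named genes covers the 8, *Esr1* and hormone genes, the 3 genes most correlated with each of the 8, and from the lists their called genes, for most lists the most abundant gene, and close relatives of the 8. Other genes, among them *Vip*, *Gm7694*, *Mrpl36* and *Insr*, were named after their values were seen.

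Tests used limma 3.58.1 (R 4.3.3) on log2(value + 0.5) of genes averaging 1 or more, fitting the 4 group means to the 16 mice. Variances were moderated by eBayes with a trend, and p was adjusted for each comparison by Benjamini and Hochberg, with 0.05 as threshold. The added 0.5 makes log2 differences of genes with low values smaller. The procedure was also run on simulated data, from which no result is given or used here. Python 3.11.15 with numpy 2.4.6, pandas 2.3.3, scipy 1.17.1 and matplotlib 3.10.9 gave correlations, motif searches and figures. Positions are from GENCODE M21 (GRCm38). BLAST 2.17.0 searched transcripts for shared sequence of 100 bases or more at 90% identity or more. A symbol was found for 17351 genes.

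Reads were estimated from the smallest steps between the values of 1457 coding genes that have 1 transcript. The step was 0.0450 to 0.0686 units per kilobase, depending on the library, and 81.3% to 90.6% of the values used lay within 0.1 of a whole number of steps. The estimate takes the longest coding transcript and covers counting error alone. Leaving out P357, P384 and P392 together was chosen after seeing the data.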

Additional observations from a re-analysis of the deposited data

Results flagged for a closer look

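Of 64 groups of 4 values, from the 8 genes and the lists of leukocyte, macrophage, B cell, T and NK cell, neutrophil, endothelial, stem and folliculostellate, and immediate early genes, 8 held a mouse far from the other 3, at a limit that chance passes in about 5% of groups. *Plat* stood at 42.4 in P357, against 32.2 to 33.9 in the other mutants on SD. *Rasal1* stood at 6.27 in P388, against 1.68 to 2.43 in the other mutants on HFD. In P384, the leukocyte sum was 147.6 and the B cell sum 86.2, against 36.7 to 41.6 and 8.55 to 9.68 in the other mutants on SD. In P356, the macrophage sum was 58.2 and the neutrophil sum 3.28, against 74.8 to 77.9 and 1.55 to 1.57 in the other controls on SD. The neutrophil sum was 63.7 in P339, against 2.90 to 9.71 in the other mutants on HFD. The endothelial sum was 297.8 in P392, against 148.1 to 162.6 in the other controls on HFD. Outside these 64, the same limit was passed, among other values, by the fibroblast and mural sum of P392, 193.1 against 64.7 to 82.4 in the other controls on HFD. The peptidoglycan recognition sum of P384 passed it at 94.4, against 22.97 to 28.56 in the other mutants on SD. In P357, *Esr1* passed it at 10.02, against 20.5 to 22.2 in the other mutants on SD. The mitochondrial sum of P357 did so at 119409, against 36350.4 to 40706.5 in the same mice.

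*Pglyrp1* differed in opposite directions between diets in mutants and controls, and between genotypes on SD and HFD. Both differences are the same interaction, -2.10 on the log2 scale (limma adjusted p = 0.41), and it contains the comparisons by which the gene was chosen.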

How the results depend on the processing

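In the comparisons used for the choice and in the interaction, no difference of the 8 genes turned direction under an alternative or with 1 mouse left out. The choice required these directions in the former and favoured them in the interaction, so nothing is read from this. The calls of the 8 genes on SD were often lost. With 1 mouse left out, they held in 11 of 16 fits for *Plat*, *Grb14* and *Rasal3*, 10 for *Dbi* and *Pglyrp1*, 7 for *Sertad1*, 5 for *Cd37* and 3 for *Rasal1*. With the lobe covariate *Rasal3* alone was called, with the leukocyte covariate *Plat* and *Grb14*, and with the range of animal numbers *Plat*, *Dbi*, *Pglyrp1* and *Rasal3*. All 4 controls on HFD and 1 of 4 on SD lie in the higher range of animal numbers. The count of genes called for mutants against controls on SD, 264, was 151 with a filter at 5, 2017 with array weights, 43 with the leukocyte covariate, 44 with the lobe covariate, 20 at an adjusted p under 0.01, 961 without P357 and P392, and 454 without P357, P384 and P392. For mutants against controls on HFD, where 0 were called by limma and 1461 had an unadjusted p under 0.05, the count was 1 with a filter at 0.1, with no filter and without trend, 1068 with array weights, 140 with the lobe covariate, 1064 without P357 and P392, and 969 without P384 as well. For HFD against SD in mutants it was 1 with array weights and 2 with the 8 mice alone. In controls it was 5 with array weights and 1 with either set of mice left out, and for the interaction 1 with array weights.

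With 1 mouse left out, the counts ran from 33 to 826 for genotype on SD, 0 to 1 for diet in mutants, 0 to 653 for genotype on HFD, 0 to 6 for diet in controls and 0 to 1 for the interaction.

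Differences near 0 turned direction, and the cause was not tested. Between genotypes on HFD, *Rasal3* was 0.0275 with array weights, and *Grb14* was 0.0446 with the range of animal numbers as covariate, 0.0852 with the leukocyte and 0.0603 with the lobe covariate. Between diets in controls, *Dbi* was 0.0348 with array weights, 0.0661 with the number range and 0.00793 with either set of mice left out, and *Rasal1* was -0.0296, -0.108 and -0.0916. With 1 mouse left out, genotype differences on HFD ran from -0.100 to 0.0252 for *Dbi*, -0.0720 to 0.0472 for *Grb14* and -0.330 to 0.108 for *Rasal3*. Diet differences in controls ran from -0.103 to 0.0934 for *Dbi* and from -0.0916 to 0.247 for *Rasal1*.

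Limits are 4 mice per group, genes chosen by the values described, a whole gland of many cell types, and no record of litter or preparation batch in the labels. Counting error is large for *Pglyrp1*. *Cd37* and *Rasal3* were also low, at an estimated 11 and 19 reads in their lowest mice.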

Other observations

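Other cells and lobes of the gland gave the following values. All 5 genes of red blood cells were measured and above 0 in every mouse, with *Hba-a2* the most abundant. Their sum was 2254 to 4662 in mutants on SD, 581.2 to 3252 in controls on SD, 1291 to 2406 in mutants on HFD and 773.9 to 1782 in controls on HFD. The list's median on the log2 scale was 1.32 between genotypes on SD, with 5 of 5 genes above 0, and -0.66 for HFD against SD in mutants, with 5 of 5 below 0. These are the directions by which the 8 genes were chosen, and none of its genes passed the threshold in a comparison. All 5 fibroblast and mural cell genes were above 0 in every mouse, with *Rgs5* the most abundant. Their sum was 86.5 to 114.9 in mutants on SD, 65.6 to 80.7 in controls on SD, 102.9 to 192.6 in mutants on HFD and 64.7 to 193.1 in controls on HFD, where P392 was the highest.

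All 4 posterior lobe genes were measured, *Nkx2-1* was at 0 in 1 mouse and *Rax* in 2, and *Col25a1* was the most abundant. *Col25a1* rose in mutants on SD by 1.00 on the log2 scale (limma adjusted p = 0.032), with means of 15.9 ± 1.49 against 7.96 ± 2.72 (SD, n = 4). The other 3 had negative differences on SD, *Nkx2-1* -0.64, *Rax* -1.11 and *Scn7a* -0.69, none past the threshold. The mean log2 value of the list was 0.593 in P357 and 0.353 in P392, and 1.61 to 2.03 in the other 14 mice. Between genotypes on HFD all 4 had positive differences, with a median of 0.57. On HFD the mean of *Col25a1* was 17.0 ± 1.66 in mutants and 9.99 ± 3.64 in controls (adjusted p = 0.23). All 4 intermediate lobe genes were above 0 in every mouse, with *Pomc* the most abundant. Their sum was 1666 in P357 and 12371 to 15237 in the other mutants on SD, 14267 to 22208 in mutants on HFD, 11606 to 17521 in controls on SD, and 3484 to 42298 in controls on HFD.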
